A study of Homo sapiens with 12 samples.

Results

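Silencing of Oct4 was set directly against combined silencing of Ccnf and Nipp1 in OVCAR-3 cells, an established line from a human high-grade serous ovarian carcinoma. The comparison used 6 of the 12 arrays of the series, chosen by their labels, with 3 arrays that received Oct4 siRNA (siOct4) and 3 that received Ccnf siRNA together with Nipp1 siRNA (siCcnf+siNipp1). The 3 arrays with control siRNA (control) are given beside them as the level from which both knockdowns started, and 3 further arrays with Rb1 siRNA only added to the estimate of the spread. Small interfering RNAs (siRNAs) direct the breakdown of a matching transcript. All cells were transfected with Lipofectamine RNAiMAX and total RNA was taken 72 hours later. Ccnf and Nipp1 were silenced in the same cells, so the effects of either siRNA alone cannot be told apart. Each group is 1 cell line, the sequences of the siRNAs are not given in the sources used here, and the labels call the arrays biological replicates without naming separate cultures, so the p-values speak only of the spread among these arrays, which could be technical.

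OCT4, encoded by POU5F1, is a homeodomain transcription factor that holds embryonic stem cells in the pluripotent state and is also found in some tumours. CCNF encodes cyclin F, the substrate-binding subunit of a ubiquitin ligase that marks proteins for destruction in the G2 phase. NIPP1, encoded by PPP1R8, is a nuclear subunit that holds protein phosphatase 1 at chromatin, where the phosphatase acts on mitotic proteins and on RB, the repressor of E2F factors. Genes of S phase are driven by E2F factors, and genes of mitosis by the MuvB complex with B-MYB and FOXM1. Both knockdowns lowered cell-cycle genes against control, and the question here was which genes separated them.

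The array software gives each probe a detection p-value against negative control beads. Genes entered the test when 3 or more of the 6 arrays detected the probe (p-value under 0.01), which left 10314 of 20039 genes with a probe. Levels are log2 intensities after background correction and quantile normalization. A difference is always the siOct4 mean minus the siCcnf+siNipp1 mean on that log2 scale, with its standard error (SE) from limma, and a gene was called at a Benjamini-Hochberg adjusted p under 0.05. Between 16186 and 17351 of 47322 probes were detected on each array, and the number of arrays limits the precision. Arrays of one group correlated across genes at r = 0.979 to 0.989 (6 pairs) and arrays of the different groups at 0.938 to 0.958 (9 pairs), over genes that are not independent replicates. Along the first principal component, which held 66.4% of the variance, the siOct4 arrays lay between -32.8 and -28.04 and the siCcnf+siNipp1 arrays between 25.97 and 34.68. Replicate 1 of both groups lay apart on the second component (14.8%), at -22.46 for siOct4 and -17.9 for siCcnf+siNipp1, against 7.619 to 13.47 for the other 4 arrays.

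The label of the line was read against its markers. Of 10 markers of ovarian carcinoma lines, 5 (KRT7, KRT18, KRT19, EPCAM and PAX8) were detected on all 6 arrays, and WT1, WFDC2 and KRT8 were undetected on all 6, KRT8 being detected on all 3 control arrays. The fibroblast markers COL1A2, COL3A1, DCN and LUM, the leukocyte marker PTPRC and the endothelial marker PECAM1 were undetected on all 6. Of the marker lists of other cells, 7 of 9 fibroblast, 7 of 9 leukocyte and 5 of 7 endothelial markers with a probe were undetected on all 6 arrays. Their levels summed over the list ranged over 49.88 to 52.02 with siOct4 and 49.97 to 51.01 with siCcnf+siNipp1 for fibroblasts, 52.07 to 54.32 with siOct4 and 53.18 to 54.2 with siCcnf+siNipp1 for leukocytes, and 44.8 to 45.2 with siOct4 and 44.27 to 45 with siCcnf+siNipp1 for endothelium. HLA-DRA, VWF and CDH5 were detected on all 6 arrays.

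The siRNA targets come first. POU5F1 had levels of 5.88, 5.07 and 4.99 on the siOct4 arrays, 11.58, 11.51 and 11.74 on the siCcnf+siNipp1 arrays and 10.60, 10.47 and 10.66 on the control arrays. The probe was undetected on all 3 siOct4 arrays, and the groups lay far apart. POU5F1 was at least 32.4-fold lower with siOct4 than with siCcnf+siNipp1 (limma adjusted p = 9.89e-09, exact permutation p = 0.1, the smallest that 3 arrays against 3 allow). This bound sets the higher group's mean against the lowest signal of a detected probe on each array of the lower group, or the probe's own signal where that is larger. Every "at least" given below for a single gene is computed in this way. Counts of genes at least 2-fold apart use the plain difference of the means instead. A second, dimmer POU5F1 probe, annotated to another transcript of the gene, went the other way. It averaged 7.57 ± 0.24 with siOct4 and 6.82 ± 0.27 with siCcnf+siNipp1 (SD, n = 3 each; difference 0.76, limma adjusted p over all kept probes = 0.0129). The fall of POU5F1 therefore holds for 1 of its 2 measured probes.

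CCNF had levels of 11.37, 10.74 and 10.74 with siOct4, 10.98, 10.00 and 10.09 with siCcnf+siNipp1 and 12.06, 11.95 and 11.71 in control. Both knockdowns lay below every control array, and their own values overlapped. The difference between them was 0.59 ± 0.25 (SE; limma adjusted p = 0.083, exact permutation p = 0.3). It passed the test with the replicate number as a block (adjusted p = 0.0168) and without siCcnf+siNipp1 replicate 1 (0.91, adjusted p = 0.00605). PPP1R8 has no probe in the annotation used, so the Nipp1 target was not measured. RB1 itself was lower with siOct4, at 7.46, 6.82 and 7.17 against 8.13, 8.02 and 8.27 with siCcnf+siNipp1 and 7.85, 7.33 and 8.11 in control (difference -0.99 ± 0.21, SE; limma adjusted p = 0.00309).

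The knockdowns differed in 3813 of 10314 genes (37.0%), 1922 higher (18.6%) and 1891 lower (18.3%) with siOct4. Of these, 831 were at least 2-fold apart (8.06% of all), and 396 (3.84%) were at least 2-fold higher and 435 (4.22%) at least 2-fold lower. The 3 arrays of one group lay wholly on one side of the other 3 in 4775 genes (46.3%). Over all genes tested the median difference was 0.00882 and the median size of a difference 0.325. Against the same control arrays, siOct4 changed 3667 genes (35.6%; 18.9% higher and 16.6% lower) and siCcnf+siNipp1 4095 (39.7%; 20.4% higher and 19.3% lower).

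**Figure D1:**
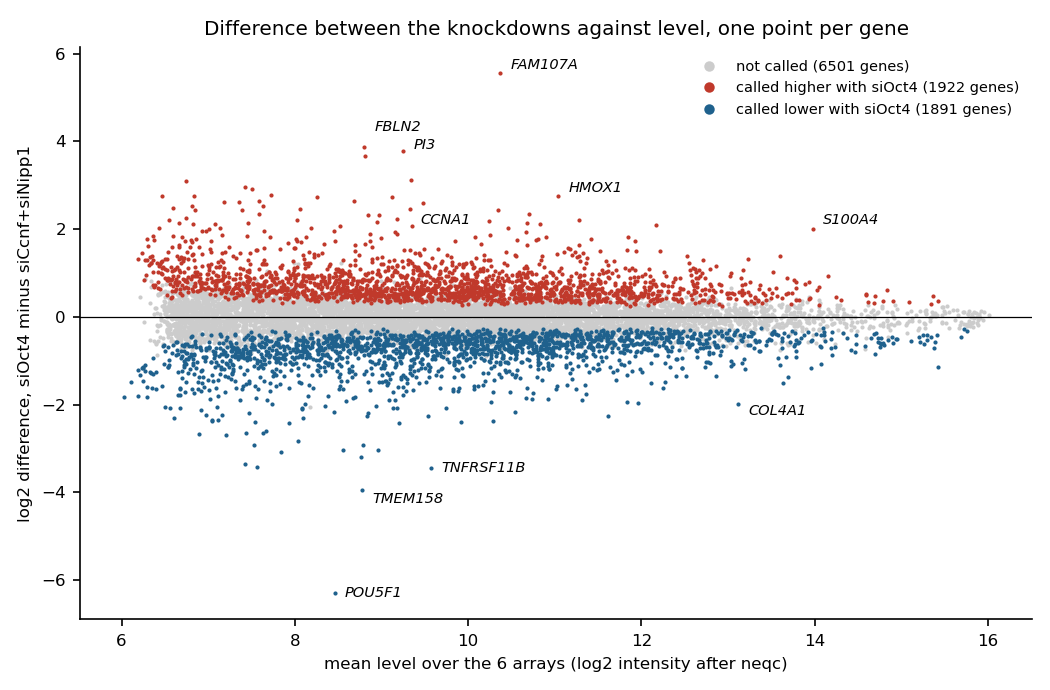
Each point is 1 of the 10314 genes tested. The x axis is the mean level over the 6 arrays and the y axis the difference, siOct4 minus siCcnf+siNipp1 (both log2). Called genes spread evenly to both sides of 0 over the whole range of levels, and POU5F1 and FAM107A lie farthest out.

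Among the 15 genes with the largest positive differences, some stood above control with siOct4. FAM107A, an actin-associated stress protein, had levels of 13.64, 13.09 and 12.71 with siOct4, 10.17, 5.92 and 6.67 with siCcnf+siNipp1 and 10.11, 8.07 and 7.54 in control. Its difference was 5.56 ± 0.91 (SE; limma adjusted p = 0.000593). Of the siCcnf+siNipp1 arrays 1 of 3 detected the probe, so the size of the difference and its rank rest in part on signals not above background. PI3, which encodes the elastase inhibitor elafin, stood at 9.76, 12.08 and 11.58 with siOct4, 7.73, 6.87 and 7.46 with siCcnf+siNipp1 and 7.51, 6.82 and 7.44 in control. All siOct4 arrays lay above the rest, while siCcnf+siNipp1 overlapped control (difference 3.79 ± 0.50, adjusted p = 0.000144). HMOX1, which encodes the haem-degrading enzyme heme oxygenase 1, followed the same layout at 11.69, 12.74 and 12.80 with siOct4, 9.32, 9.78 and 9.89 with siCcnf+siNipp1 and 10.18, 9.79 and 10.04 in control (difference 2.75 ± 0.27, adjusted p = 1.97e-05). MAPT, which encodes the microtubule-binding protein tau, was undetected on all siCcnf+siNipp1 and control arrays and at least 2.95-fold higher with siOct4 than with siCcnf+siNipp1 (adjusted p = 2.56e-06).

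Other genes of this set stayed near control with siOct4 and were low with siCcnf+siNipp1. FBLN2, which encodes the matrix protein fibulin-2, had levels of 10.89, 10.85 and 10.48 with siOct4, 7.13, 6.58 and 6.87 with siCcnf+siNipp1 and 10.65, 10.68 and 10.27 in control. The siOct4 and control arrays overlapped, and the siCcnf+siNipp1 arrays lay more than 3 log2 units below both (difference 3.88 ± 0.17, adjusted p = 1.2e-07, the smallest among higher genes). KIF1A, a kinesin that carries synaptic vesicle precursors, was at least 4.77-fold higher with siOct4 than with siCcnf+siNipp1 (adjusted p = 4.52e-06), with a siOct4 mean 0.23 above control. TERC, the RNA template of telomerase, had a difference of 2.74 (adjusted p = 1.06e-05) and lay 0.10 from control with siOct4 and -2.63 from control with siCcnf+siNipp1. CCNA1, the germline A-type cyclin, lay below control in both groups, by -1.22 with siOct4 and -3.69 with siCcnf+siNipp1, and so was higher with siOct4 (difference 2.46 ± 0.28, adjusted p = 5.28e-05). The mitochondrial creatine kinase CKMT1A, with a difference of 2.43, and its near-identical copy CKMT1B, with 2.32, were also among the higher genes with the smallest p. Their probes may read each other's transcripts.

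The 15 genes with the largest negative differences included several receptors. TNFRSF11B, which encodes osteoprotegerin, the soluble decoy receptor for RANKL, had levels of 7.76, 8.0 and 7.79 with siOct4, 10.92, 11.29 and 11.67 with siCcnf+siNipp1 and 9.28, 9.21 and 9.41 in control. The 3 groups did not overlap, and control lay between the knockdowns (difference -3.44 ± 0.19, adjusted p = 8.25e-07). TNFRSF19, another TNF receptor family member, had the same order at 7.38, 7.40 and 6.72 with siOct4, 9.98, 10.65 and 10.45 with siCcnf+siNipp1 and 8.53, 8.41 and 8.27 in control (difference -3.19 ± 0.21, adjusted p = 1.28e-06). LIFR, the receptor for leukaemia inhibitory factor, was undetected on all siOct4 arrays and at least 6.41-fold lower than with siCcnf+siNipp1 (adjusted p = 7.15e-05). IL6R, the interleukin 6 receptor, was at least 3.89-fold lower in the same way (adjusted p = 4.45e-06). NRP1, a co-receptor for VEGF and semaphorins, had a difference of -2.82 (adjusted p = 3.38e-05, detected on 2 of 3 siOct4 arrays). Relative to control, LIFR, IL6R and NRP1 stood at 2.14, 0.81 and 1.76 with siCcnf+siNipp1.

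TMEM158, a membrane protein first found as a RAS-induced gene in senescence, had the largest negative difference after POU5F1. It lay at 6.77, 6.76 and 6.88 with siOct4, 9.65, 11.76 and 10.84 with siCcnf+siNipp1 and 8.48, 9.25 and 9.12 in control, with no overlap between the groups (difference -3.95 ± 0.39, adjusted p = 2.33e-05). PANX2, a pannexin channel protein, was near control with siOct4 (-0.23) and high with siCcnf+siNipp1 (2.81 above control), a difference of -3.03 ± 0.31 between the knockdowns (adjusted p = 2.78e-05). HSPB3, a small heat shock protein, was near control with siCcnf+siNipp1 and below it with siOct4, with levels of 9.07, 9.12 and 9.10 with siOct4, 11.45, 11.54 and 11.43 with siCcnf+siNipp1 and 11.36, 11.004 and 11.02 in control (difference -2.38 ± 0.14, adjusted p = 8.25e-07). CA5B, a mitochondrial carbonic anhydrase, was at least 5.67-fold lower with siOct4 (adjusted p = 3.08e-07), and its siCcnf+siNipp1 mean lay 0.81 above control. NTS, which encodes neurotensin, and OLR1, a receptor for oxidised lipoprotein, were below control in both knockdowns and lower still with siOct4. Their differences were -3.04 and -3.08 (adjusted p = 0.000113 and 3.41e-06). NTS was detected on 2 of 3 siOct4 arrays and OLR1 on 1 of 3, so these sizes rest in part on signals not above background.

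**Figure D2:**
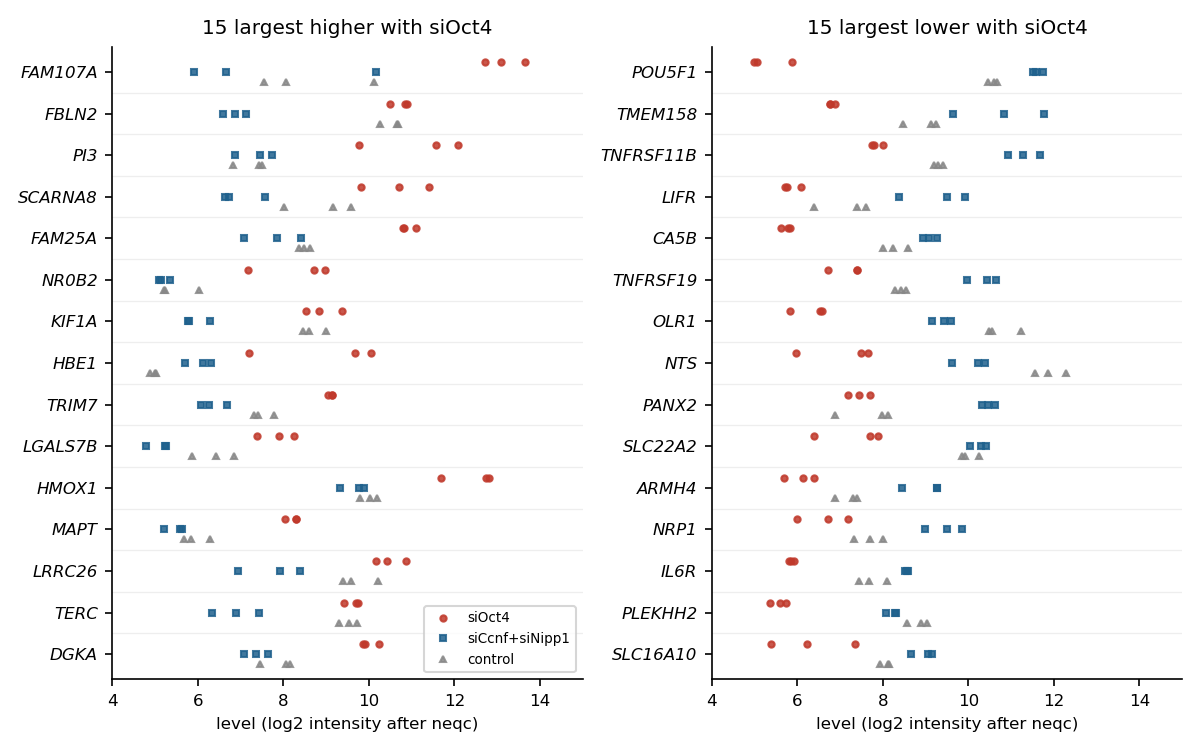
Level (log2 intensity) on every array for the 15 genes with the largest positive and the 15 with the largest negative difference. Points are single arrays of siOct4 (circles), siCcnf+siNipp1 (squares) and control (triangles). In TNFRSF11B and TNFRSF19 control lies between the knockdowns, in FBLN2 and TERC control lies with siOct4, and in PI3 and HMOX1 control lies with siCcnf+siNipp1.

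Most cell-cycle genes did not pass the test between the knockdowns. Of 246 tested members of 9 lists (G2/M factors, chromosomal passenger complex, kinetochore, spindle motors, checkpoint, centrosome, E2F targets, replication and homologous recombination), 29 were higher with siOct4, 28 were lower and 189 did not pass, so that 23.2% were called beside 37.0% of all genes. With the replicate number as a block, 37 were higher and 39 lower, while 4870 of all 10314 genes were called. The median difference was -0.0292, beside 0.00882 over all genes, and the median size was 0.252, beside 0.325. The 95% interval of the difference lay within 1 log2 unit of 0 for 196 of the 246, and 10 genes were both called and at least 2-fold apart. Against the same control arrays, 178 of the 246 were lower with siOct4 (background 16.6%) and 189 with siCcnf+siNipp1 (background 19.3%), with medians of -0.862 and -0.859.

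Well-known regulators differed by varying amounts between the knockdowns. CCNB1, PLK1 and E2F1 had differences of 0.60, -0.56 and 0.54 (limma adjusted p = 0.0391, 0.0546 and 0.265). CDC20, CCNA2, TOP2A and AURKA had differences near 0. A gene that did not pass the test is not thereby shown to be at the same level. CDC20, an activator of the anaphase-promoting complex, had levels of 13.90, 13.29 and 12.97 with siOct4, 13.67, 13.38 and 13.27 with siCcnf+siNipp1 and 14.66, 14.81 and 14.71 in control. CCNA2, which encodes the S and G2 phase cyclin A2, lay at 10.92, 10.08 and 10.21 with siOct4, 10.91, 10.14 and 10.32 with siCcnf+siNipp1 and 11.98, 11.70 and 11.83 in control. In both genes the knockdowns overlapped and lay below every control array. The differences were -0.06 (95% interval -0.49 to 0.38, adjusted p = 0.85) for CDC20 and -0.05 (-0.55 to 0.44, adjusted p = 0.872) for CCNA2. TOP2A, the DNA topoisomerase of dividing cells, AURKA and AURKB, the Aurora kinases, and FOXM1 had differences of 0.03, -0.08, 0.20 and -0.24, none past the test (adjusted p from 0.448 to 0.894).

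Replicate 1 of each knockdown had moved less from control. Over the 246 genes the median level relative to the control mean was -0.545, -1.1 and -0.956 on the siOct4 arrays and -0.614, -1.06 and -0.897 on the siCcnf+siNipp1 arrays. Without siOct4 replicate 1, the median difference became -0.17 and the calls 21 higher and 60 lower of the 246. In that fit 3531 of all 10314 genes were called, 1748 higher and 1783 lower. The share of calls among the 246 was then close to that of all genes. The part of this array in the result was not tested further. CDK1, the kinase that drives mitosis, shows the dependence. Its levels were 11.48, 10.48 and 10.89 with siOct4, 11.52, 11.15 and 11.22 with siCcnf+siNipp1 and 12.35, 12.17 and 12.31 in control, a difference of -0.35 (adjusted p = 0.203) that was -0.61 without siOct4 replicate 1 (adjusted p = 0.0109). PLK1, the polo-like kinase, had a difference of -0.56 (adjusted p = 0.0546), of -0.85 without that array (adjusted p = 0.00191), and passed with the replicate block (adjusted p = 0.0439). BIRC5, the passenger protein survivin, had -0.24 (adjusted p = 0.404) and -0.49 without it (adjusted p = 0.0466).

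**Figure D3:**
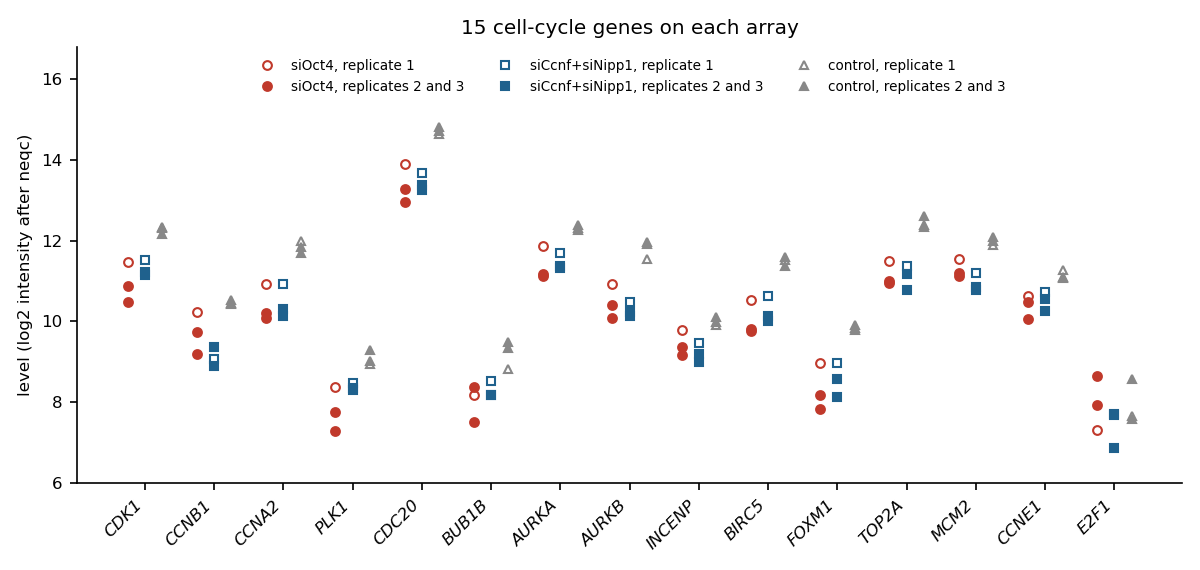
Levels (log2 intensity) of 15 cell-cycle genes on every array, with siOct4 as circles, siCcnf+siNipp1 as squares and control as triangles, and replicate 1 of each group as open symbols. The knockdowns overlap in most of the 15 genes, control lies above them in CDC20 and CCNA2, and replicate 1 of both knockdowns lies nearest to control in CDC20, CCNA2 and FOXM1.

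The promoters of mitotic genes often hold the letters TTTGAA, the core of the cell-cycle homology region through which the MuvB complex acts. In the RefSeq promoters (build GRCh38.p14, 250 bases before to 50 after each start, both strands searched), TTTGAA stood in 15.2% of all 35116, in 10.4% of those of tested genes and in 43.6% of the 156 promoters of tested mitotic list members, 62 genes in all. Of these 62 genes, 10 were called between the knockdowns (16.1%, beside 37.0% of all genes). The 100 bases before the start are shown for 3 genes on the gene's strand, with TTTGAA in capitals. CDC20 (chr1:43358881-43358980, plus strand) and CDK1 (chr10:60778378-60778477, plus strand) were not called in the main fit. CDC25C (chr5:138331805-138331904, minus strand) was called. CDK1 passed without siOct4 replicate 1, and CDC25C lost its call in 2 of 19 alternatives. A match of letters is a description and not a measured site.
CDC20: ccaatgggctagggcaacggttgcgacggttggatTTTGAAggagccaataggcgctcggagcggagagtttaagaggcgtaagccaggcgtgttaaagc
CDK1: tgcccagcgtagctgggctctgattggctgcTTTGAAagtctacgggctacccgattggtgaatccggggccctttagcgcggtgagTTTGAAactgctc
CDC25C: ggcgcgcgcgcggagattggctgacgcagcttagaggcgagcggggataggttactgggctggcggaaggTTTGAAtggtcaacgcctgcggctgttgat

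Among 36 G2/M genes, 2 were higher and 7 lower with siOct4, that is 25% called beside 37.0% of all genes. Of the 7, CDC25C passed the filter only through the siCcnf+siNipp1 arrays. The 7 became 14 without siOct4 replicate 1, and the 2 became 0 without siCcnf+siNipp1 replicate 2 and 1 without siOct4 replicate 1 or 3 or siCcnf+siNipp1 replicate 3. ARPP19, an inhibitor of the phosphatase PP2A at mitotic entry, had levels of 10.50, 10.25 and 10.10 with siOct4, 11.36, 11.50 and 11.51 with siCcnf+siNipp1 and 11.09, 11.27 and 11.19 in control, and LIN54, the DNA-binding subunit of the MuvB complex, lay at 8.71, 8.79 and 8.41 with siOct4, 9.73, 9.57 and 9.78 with siCcnf+siNipp1 and 9.84, 9.99 and 9.41 in control. In both genes siCcnf+siNipp1 was near control and siOct4 below it (differences -1.18 ± 0.13 and -1.06 ± 0.16, adjusted p = 3.38e-05 and 0.000304). CDC25C, the phosphatase that activates CDK1, was undetected on all siOct4 arrays and at least 1.2-fold lower (adjusted p = 0.000701). A second CDC25C probe, not kept by the filter, gave -0.74, and the call was lost where it was read (adjusted p = 0.0625). CDCA2, which brings protein phosphatase 1 to chromosomes, was lower with siOct4 (difference -1.23, adjusted p = 0.000908), as were the kinetochore protein SPC25 (-1.11, adjusted p = 0.00619, detected on 1 of 3 siOct4 arrays), the checkpoint protein BUB3 (-0.69, adjusted p = 0.000349) and the mitotic kinase NEK7 (-1.43, adjusted p = 0.000434).

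Lists of S phase and DNA repair were called at shares below that of all genes. The E2F list had 6 of 35 higher and 2 lower, and homologous recombination and Fanconi genes 4 of 19 higher and 1 lower, that is 22.9% and 26.3% called beside 37.0% of all genes. The lower genes of the E2F list became 8 without siOct4 replicate 1, 0 without siOct4 replicate 2 or 3 or siCcnf+siNipp1 replicate 1, and 5 with the replicate block. Those of the repair list became 3 without siOct4 replicate 1, 2 without siOct4 replicate 3 or siCcnf+siNipp1 replicate 2, and 0 without siOct4 replicate 2 or siCcnf+siNipp1 replicate 3. HELLS, a chromatin remodeller of replicating cells, had levels of 10.04, 9.41 and 9.62 with siOct4, 8.70, 7.90 and 8.36 with siCcnf+siNipp1 and 9.56, 9.85 and 9.87 in control. FANCL, the ubiquitin ligase of the Fanconi pathway, lay at 9.46, 9.40 and 9.81 with siOct4, 8.27, 8.2 and 8.25 with siCcnf+siNipp1 and 9.09, 9.39 and 9.44 in control. In both, siOct4 overlapped control and siCcnf+siNipp1 lay below them (differences 1.37 ± 0.20 and 1.32 ± 0.15, adjusted p = 0.0003 and 6.31e-05). FANCG (0.88, adjusted p = 0.000382) and the recombination helicase RAD54L (0.67, adjusted p = 0.00331) were higher with siOct4 and below control in both groups. NUMA1, which anchors spindle poles, was higher with siOct4 as well (0.98, adjusted p = 0.00127), and CCNB1, which encodes cyclin B1, passed narrowly (0.60, adjusted p = 0.0391). The CCNB1 call was lost in 9 of 20 alternatives, among them without siOct4 replicate 1 or 3 and without siCcnf+siNipp1 replicate 1 or 2 (0.35, 0.59, 0.58 and 0.50, adjusted p from 0.0838 to 0.141).

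The G1 regulators around RB differed more. In that list 5 of 22 genes were higher and 7 lower with siOct4 (54.5% called, beside 37.0% of all genes). The 5 became 2 or 3 without siOct4 replicate 1 or 3 or without siCcnf+siNipp1 replicate 1 or 3. CCND3, which encodes cyclin D3, had levels of 11.50, 11.55 and 11.04 with siOct4, 13.14, 12.69 and 12.77 with siCcnf+siNipp1 and 12.27, 12.11 and 11.94 in control, with control between the knockdowns (difference -1.5 ± 0.16, adjusted p = 3.38e-05). CCND1, which encodes cyclin D1, went the other way at 14.47, 14.48 and 14.03 with siOct4, 13.78, 13.56 and 13.27 with siCcnf+siNipp1 and 14.25, 14.35 and 14.11 in control (difference 0.79 ± 0.16, adjusted p = 0.00269). The CDK inhibitor CDKN2B was lower with siOct4 (-1.69, adjusted p = 0.000824, detected on 1 of 3 siOct4 arrays). Among p53 targets, 3 of 22 were higher and 3 lower, or 5 lower with the replicate block (27.3% called in the fit without it, beside 37.0% of all genes). They included SFN, an inhibitor of mitotic entry (1.08, adjusted p = 0.000163), and MDM2, the ubiquitin ligase for p53 (-0.97, adjusted p = 0.00189).

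Several inflammatory genes were higher with siOct4 and above control in both knockdowns. In the NF-kB and cytokine list 10 of 23 were higher and 2 lower with siOct4 (52.2% called, beside 37.0% of all genes). The median was 0.53 beside 0.00882 over all genes. The 2 became 0 without siOct4 replicate 1 or siCcnf+siNipp1 replicate 2 and 1 without siOct4 replicate 3 or siCcnf+siNipp1 replicate 1. TNF, the inflammatory cytokine, had levels of 11.12, 11.77 and 11.43 with siOct4, 9.40, 9.99 and 9.69 with siCcnf+siNipp1 and 7.66, 6.58 and 7.30 in control. TNFAIP3, which encodes the NF-kB feedback inhibitor A20, lay at 9.18, 10.08 and 9.28 with siOct4, 7.75, 8.0 and 7.88 with siCcnf+siNipp1 and 7.20, 7.0 and 7.06 in control. Both genes stood in 3 steps without overlap (differences 1.74 ± 0.25 and 1.64 ± 0.26, adjusted p = 0.000274 and 0.000492). The same steps held for the cytokine IL32, undetected in control and 2.17 ± 0.40 higher with siOct4 (adjusted p = 0.00133). CXCL8, which encodes interleukin 8, had a difference of 2.59 ± 0.62 (adjusted p = 0.00677), on arrays that overlapped, at 9.05, 12.34 and 10.93 with siOct4 and 7.57, 9.08 and 7.90 with siCcnf+siNipp1.

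Interferon-response genes had 11 of 36 higher and 0 lower with siOct4 (30.6% called, near the 37.0% of all genes), and 17 higher without siOct4 replicate 1. Of the 11, OASL, DDX60 and RIGI were detected on no siCcnf+siNipp1 array and passed the filter only through siOct4, where they could only be higher, which leaves 8 detected in both groups. The median difference was 0.34. By array, the median of the list relative to the control mean was 0.823, 1.34 and 1.29 with siOct4 and 0.443, 0.975 and 0.681 with siCcnf+siNipp1. The groups overlapped, while within each of the 3 same-numbered pairs the siOct4 array was higher. These medians include OASL, DDX60 and RIGI. IRF7, the factor that sustains interferon production, had levels of 9.94, 11.15 and 10.22 with siOct4, 8.52, 9.42 and 8.69 with siCcnf+siNipp1 and 9.22, 9.33 and 9.17 in control. It was higher with siOct4 (1.56 ± 0.30, adjusted p = 0.00168), while siCcnf+siNipp1 and control overlapped. OASL, an antiviral protein, and DDX60, a helicase of the same response, were undetected on all siCcnf+siNipp1 and control arrays and at least 1.99-fold and at least 1.60-fold higher with siOct4 (adjusted p = 0.000192 and 0.000391). IFIT1, which binds viral RNA and was named after its values were seen, had a difference of 0.95 (adjusted p = 0.00355).

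Antigen presentation genes had 6 of 25 higher and 2 lower with siOct4 (32% called, beside 37.0% of all genes). The 2 became 1 without siOct4 replicate 1 or siCcnf+siNipp1 replicate 2 or 3. PSMB9 among the higher and BTN2A2 among the lower passed the filter only through the group where they were high. This leaves 5 higher and 1 lower detected in both groups. Most members of the list lay above control in both groups, with medians of 1.30 with siOct4 and 1.10 with siCcnf+siNipp1. TAP2, a subunit of the peptide transporter, had levels of 8.40, 8.88 and 8.58 with siOct4, 7.16, 7.95 and 7.94 with siCcnf+siNipp1 and 6.81, 6.38 and 6.63 in control (difference 0.93 ± 0.24, adjusted p = 0.00918). PSMB9, an immunoproteasome subunit, was undetected on all siCcnf+siNipp1 arrays and at least 1.92-fold higher with siOct4 (adjusted p = 0.00109). MICB, a ligand of the natural killer receptor NKG2D, lay at 10.28, 10.59 and 10.36 with siOct4, 9.10, 9.40 and 9.17 with siCcnf+siNipp1 and 9.37, 9.51 and 9.34 in control (difference 1.19 ± 0.12, adjusted p = 2.9e-05). BTN2A2, a butyrophilin, was 1 of the 2 lower members, with MR1, an antigen-presenting molecule (-0.54, adjusted p = 0.0313). BTN2A2 was undetected with siOct4 and in control and at least 1.77-fold lower with siOct4 than with siCcnf+siNipp1 (adjusted p = 0.000157).

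The promoters of these genes were searched for the 2 elements best known in them, on both strands. The interferon-stimulated response element, read as GAAA, any 2 bases and GAAA again, stood in 3.57% of all promoters, in 2.87% of those of tested genes and in 50% of the 66 promoters of tested interferon and antigen presentation members (29 genes, of which 8 were called, 27.6% beside 37.0% of all genes). An NF-kB element, read as GGG, any 2 bases and TTTCC, stood in 1.91% of all and in 2.19% of those of tested genes. It stood in 35.7% of the 28 promoters of tested NF-kB list members. The matches fell in only 9 genes, of which 6 were called (66.7%, beside 37.0% of all genes). Shown are called genes with a match in the 100 bases before the start, on the gene's strand and with the matched letters, or their reverse complement, in capitals. They are DDX60 (chr4:168318753-168318852, minus strand), TAP2 (chr6:32838740-32838839, minus strand), WARS1 (chr14:100375348-100375447, minus strand), IL32 (chr16:3065303-3065402, plus strand) and TNFAIP3 (chr6:137867159-137867258, plus strand).
DDX60: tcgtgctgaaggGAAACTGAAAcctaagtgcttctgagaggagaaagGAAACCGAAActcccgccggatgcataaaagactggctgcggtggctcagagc
TAP2: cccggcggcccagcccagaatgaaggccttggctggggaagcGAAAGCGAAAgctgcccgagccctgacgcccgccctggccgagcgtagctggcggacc
WARS1: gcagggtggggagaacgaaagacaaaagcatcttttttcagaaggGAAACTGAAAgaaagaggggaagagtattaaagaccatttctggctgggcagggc
IL32: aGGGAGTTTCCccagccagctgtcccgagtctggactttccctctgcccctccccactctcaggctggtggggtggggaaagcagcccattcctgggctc
TNFAIP3: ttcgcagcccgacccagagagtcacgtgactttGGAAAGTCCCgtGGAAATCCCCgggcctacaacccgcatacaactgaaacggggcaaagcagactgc

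WARS1, the cytosolic tryptophanyl-tRNA synthetase, had levels of 12.32, 13.00 and 12.73 with siOct4, 10.98, 11.55 and 11.02 with siCcnf+siNipp1 and 11.06, 11.09 and 11.03 in control. It was 2.82-fold higher with siOct4 (1.5 ± 0.18 on the log2 scale, adjusted p = 7.83e-05), while siCcnf+siNipp1 and control overlapped.

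Genes of squamous barrier and protease inhibition were higher with siOct4, 7 of the 11 tested and 0 lower (63.6% called, beside 37.0% of all genes, median 0.77). However, 27 of the 38 listed genes did not pass the detection filter. FLG, which encodes the barrier protein filaggrin, had levels of 11.51, 12.03 and 12.11 with siOct4, 9.64, 9.31 and 9.64 with siCcnf+siNipp1 and 8.01, 7.85 and 7.86 in control. SLPI, a secreted protease inhibitor, lay at 8.92, 11.19 and 11.07 with siOct4, 7.62, 8.75 and 8.56 with siCcnf+siNipp1 and 5.58, 6.05 and 6.57 in control. In both genes the 3 groups stood in steps without overlap (differences 2.35 ± 0.19 and 2.08 ± 0.51, adjusted p = 5.13e-06 and 0.00744). CNFN, a cornified envelope protein, was above control with siOct4 and below it with siCcnf+siNipp1 (difference 1.90, adjusted p = 9.84e-06). The keratin KRT15 (1.46, adjusted p = 0.000423) was higher with siOct4. KRT7 (1.67, adjusted p = 0.00472) was also higher, but it belongs to the list of epithelial adhesion genes and regulators. In that list 5 of 22 were higher and 2 lower (31.8% called, beside 37.0% of all genes, median -0.0098). The 2 lower genes were EHF (-0.99, adjusted p = 0.007) and DSG2 (-0.46, adjusted p = 0.0102).

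Markers of serous ovarian carcinoma had 6 of 10 tested members higher with siOct4 and 0 lower (60% called, beside 37.0% of all genes, median 0.59). Only these 10 of the 20 listed genes passed the detection filter, MSLN through siOct4 alone. MSLN, which encodes the surface antigen mesothelin, had levels of 8.13, 7.92 and 7.49 with siOct4, 5.52, 5.41 and 5.12 with siCcnf+siNipp1 and 8.14, 8.39 and 8.22 in control. It was undetected on all siCcnf+siNipp1 arrays and at least 2.28-fold higher with siOct4 (adjusted p = 1.4e-06). PAX8, the lineage factor of Müllerian epithelium, lay at 12.44, 12.30 and 12.31 with siOct4, 11.70, 11.84 and 11.70 with siCcnf+siNipp1 and 11.81, 11.79 and 11.70 in control (difference 0.60 ± 0.10, adjusted p = 0.00065). CRABP2, a retinoic acid carrier, had a difference of 0.89 (adjusted p = 0.000251). CDH1, which encodes E-cadherin, was named after its values were seen. It lay at 7.31, 7.47 and 7.55 with siOct4, 8.60, 7.44 and 7.65 with siCcnf+siNipp1 and 10.37, 10.64 and 10.61 in control, and did not pass between the knockdowns (-0.45 ± 0.23, adjusted p = 0.149).

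Matrix and adhesion genes separated the knockdowns in both directions, 8 of 30 higher and 11 lower with siOct4 (63.3% called, beside 37.0% of all genes). MMP1 and TIMP3 among the higher and PLAT among the lower were detected in 1 of the groups only. COL4A1, a type IV collagen chain, had levels of 12.25, 12.20 and 11.93 with siOct4, 13.79, 14.44 and 14.09 with siCcnf+siNipp1 and 13.13, 13.05 and 13.07 in control. LAMC1, a laminin chain, lay at 13.20, 12.81 and 13.01 with siOct4, 14.17, 14.39 and 14.57 with siCcnf+siNipp1 and 13.91, 14.18 and 13.94 in control. Neither gene overlapped between the knockdowns (differences -1.98 ± 0.15 and -1.37 ± 0.15, adjusted p = 3.64e-06 and 4.42e-05). TIMP2, an inhibitor of matrix proteases, followed COL4A1 (-1.97, adjusted p = 4.32e-06). ITGA5, a subunit of the fibronectin receptor, was at 9.89, 9.88 and 9.84 with siOct4, 11.25, 11.72 and 11.47 with siCcnf+siNipp1 and 9.62, 10.01 and 9.69 in control (-1.61 ± 0.15, adjusted p = 1.21e-05).

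The integrin ITGA3 and the laminin chain LAMB3 (1.01, adjusted p = 0.0289) were among the higher members. ITGA3, a subunit of a laminin receptor, had levels of 11.64, 11.49 and 11.51 with siOct4, 9.94, 10.52 and 10.01 with siCcnf+siNipp1 and 9.33, 9.67 and 9.19 in control (1.39 ± 0.17, adjusted p = 9.28e-05). MMP1, interstitial collagenase, was undetected on all siCcnf+siNipp1 arrays and at least 2.69-fold higher with siOct4 (adjusted p = 1.88e-05), and TIMP3 was likewise at least 2.13-fold higher (adjusted p = 0.00261). S100A4, a calcium-binding protein of motile cells, lay at 15.11, 14.76 and 15.09 with siOct4, 13.40, 12.60 and 12.92 with siCcnf+siNipp1 and 14.09, 14.08 and 14.14 in control, with control between the knockdowns (2.01 ± 0.18, adjusted p = 9.04e-06). In the mesenchymal and actin list, S100A4 and VIM (0.68, adjusted p = 0.000292) were among 3 of 20 higher genes (5 with the replicate block). CALD1, MYLK and CCN2 were among 7 lower ones (-0.65, -0.96 and -1.13, adjusted p from 0.000725 to 0.0057). Of this list 50% was called in the fit without the block, beside 37.0% of all genes.

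In the insulin-like growth factor list 7 of 13 were lower with siOct4 and 0 higher (53.85% called, beside 37.0% of all genes, median -0.32). The 0 became 1 without siCcnf+siNipp1 replicate 2. Of the 7, IRS1, IGFBP7 and PAPPA were detected on no siOct4 array and passed the filter only through siCcnf+siNipp1, where they could only be lower, which leaves 4 detected in both groups. The immediate early and MAPK list, which holds EGFR and ERBB3, had 6 of 29 higher and 8 lower (48.3% called, beside 37.0% of all genes, median -0.08). The 8 became 5 without siOct4 replicate 1 or siCcnf+siNipp1 replicate 3, 4 without siOct4 replicate 3 and 3 without siCcnf+siNipp1 replicate 2. By array, the median of the insulin-like growth factor list relative to control was 0.309, 0.451 and 0.261 with siOct4. With siCcnf+siNipp1 it was 0.925, 1.06 and 0.866, without overlap. These medians, like the list median of -0.32, include IRS1, IGFBP7 and PAPPA, so the filter contributed to the gap. IRS2, a docking protein of the insulin receptor, had levels of 8.59, 9.25 and 8.76 with siOct4, 9.61, 10.58 and 10.49 with siCcnf+siNipp1 and 8.45, 8.51 and 8.85 in control (-1.36 ± 0.26, adjusted p = 0.0016). Its relative IRS1 was undetected with siOct4 and in control and at least 1.41-fold lower with siOct4 than with siCcnf+siNipp1 (adjusted p = 0.000444). EGFR, the epidermal growth factor receptor, lay at 8.0, 7.49 and 7.59 with siOct4, 9.15, 9.34 and 9.48 with siCcnf+siNipp1 and 7.69, 7.72 and 7.57 in control. It was near control with siOct4 and high with siCcnf+siNipp1 (-1.63 ± 0.14, adjusted p = 7.79e-06). ERBB3, a receptor of the same family, went the other way (1.02 ± 0.15, adjusted p = 0.000305). A second ERBB3 probe, dimmer, gave 0.51 (adjusted p over all kept probes = 0.105).

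Genes of autophagy and the lysosome were lower with siOct4, 18 of 35 and 3 higher (60% called, beside 37.0% of all genes, median -0.36). The 18 became 10 without siCcnf+siNipp1 replicate 2. By array the list's median relative to control was 0.0988, 0.287 and 0.0995 with siOct4 and 0.37, 0.597 and 0.546 with siCcnf+siNipp1. GABARAPL1, a protein of the autophagosome membrane, had levels of 9.83, 10.52 and 10.77 with siOct4, 11.77, 12.45 and 12.59 with siCcnf+siNipp1 and 10.51, 10.78 and 11.09 in control (-1.89 ± 0.25, adjusted p = 0.000162). ULK1, the kinase that starts autophagy, was at 11.63, 11.78 and 11.36 with siOct4, 12.44, 12.41 and 12.34 with siCcnf+siNipp1 and 11.54, 11.57 and 11.31 in control (-0.81 ± 0.14, adjusted p = 0.000865). In both, siOct4 overlapped control and siCcnf+siNipp1 lay above it. The lysosomal enzyme HEXA (-1.19, adjusted p = 0.00645, detected on 1 of 3 siOct4 arrays) and the proton pump subunit ATP6V1H (-0.84, adjusted p = 0.000423) were lower with siOct4 too.

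Proteasome subunits had 14 of 32 lower and 1 higher with siOct4 (46.9% called, beside 37.0% of all genes, median -0.34). The lower ones became 9 without siOct4 replicate 2 and 9 with median scaling. The list's median by array relative to control was -0.282, -0.416 and -0.242 with siOct4 and -0.0691, 0.0393 and 0.0893 with siCcnf+siNipp1. PSMD8, a subunit of the regulatory particle, had levels of 11.05, 10.97 and 11.02 with siOct4, 11.75, 12.03 and 11.96 with siCcnf+siNipp1 and 12.23, 11.97 and 11.90 in control (-0.90 ± 0.12, adjusted p = 0.000139). PSMB2, a subunit of the catalytic core, was lower by a similar amount (-0.77, adjusted p = 0.000805). The higher member was PSME1, an activator subunit induced by interferon (0.50, adjusted p = 0.0159), whose call was lost without siOct4 replicate 3 and without siCcnf+siNipp1 replicate 1.

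Chaperones of the endoplasmic reticulum (ER) and its stress pathway had 8 of 23 lower and 2 higher with siOct4 (43.5% called, near the 37.0% of all genes). The 2 became 1 without siOct4 replicate 2 or 3 or siCcnf+siNipp1 replicate 1 or 3. EIF2AK3, which encodes the ER stress kinase PERK, lay at 8.49, 8.33 and 8.77 with siOct4, 9.22, 10.07 and 10.44 with siCcnf+siNipp1 and 8.05, 8.30 and 8.28 in control. The co-chaperone DNAJC3 lay at 7.12, 6.87 and 6.78 with siOct4, 8.2, 8.42 and 8.23 with siCcnf+siNipp1 and 7.27, 7.38 and 6.90 in control. In both genes the siCcnf+siNipp1 arrays lay above all others (differences -1.38 ± 0.25 and -1.36 ± 0.15, adjusted p = 0.00126 and 4.73e-05). The chaperones HSP90B1 (-0.80, adjusted p = 0.000158) and CALR (-0.73, adjusted p = 0.000589) were lower with siOct4, and CANX, the membrane-bound relative of CALR, was higher (0.81, adjusted p = 0.000142).

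Genes of amino acid stress, targets of the transcription factor ATF4, had 10 of 27 higher and 3 lower with siOct4 (48.1% called, beside 37.0% of all genes). The 10 became 6 without siOct4 replicate 2 and without siCcnf+siNipp1 replicate 1 or 3, and the 3 became 6 with the replicate block. PHGDH, the first enzyme of serine synthesis, had levels of 14.04, 14.58 and 14.28 with siOct4, 12.03, 13.69 and 13.00 with siCcnf+siNipp1 and 12.58, 12.66 and 12.86 in control. ASNS, asparagine synthetase, lay at 13.59, 14.18 and 13.92 with siOct4, 11.64, 13.38 and 12.71 with siCcnf+siNipp1 and 12.23, 12.06 and 12.46 in control. Both genes were above every other array with siOct4, while siCcnf+siNipp1 spread around control (differences 1.39 ± 0.31 and 1.32 ± 0.33, adjusted p = 0.00448 and 0.0086). Among 29 aminoacyl-tRNA synthetases 9 were higher and 3 lower (41.4% called, near the 37.0% of all genes). The largest fall was of the mitochondrial enzyme IARS2 (-1.26, adjusted p = 0.000168).

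Oxidative stress genes differed in both directions. Of 25 NRF2 targets and aldo-keto reductases 5 were higher and 8 lower with siOct4 (52% called, beside 37.0% of all genes). The 8 became 5 without siOct4 replicate 1, 5 without siCcnf+siNipp1 replicate 2 and 4 without siCcnf+siNipp1 replicate 3. Of the 8, AKR1B10 passed the filter only through siCcnf+siNipp1. Beside HMOX1, the quinone reductase NQO1 was higher, at 13.87, 14.23 and 14.01 with siOct4, 12.88, 13.16 and 13.00 with siCcnf+siNipp1 and 12.14, 11.71 and 11.68 in control (1.03 ± 0.15, adjusted p = 0.000265). EPHX1, an epoxide hydrolase, went with it (1.21, adjusted p = 4.7e-05). AKR1C3, a steroid-reducing enzyme, lay at 6.33, 7.58 and 7.20 with siOct4, 8.52, 9.58 and 9.26 with siCcnf+siNipp1 and was undetected in control. It was lower with siOct4 (-2.08 ± 0.32, adjusted p = 0.000383), though a probe of this family may also bind its near-identical relatives. AKR1B10 was undetected with siOct4 and at least 2.16-fold lower (adjusted p = 0.000979), and the export pump ABCC3 had a difference of -1.69 (adjusted p = 0.000233).

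Stem-cell, signalling and cytoskeletal genes differed one by one. DNMT3B, a DNA methyltransferase of early embryos, had levels of 10.56, 10.22 and 10.66 with siOct4, 12.12, 12.09 and 12.50 with siCcnf+siNipp1 and 11.70, 11.77 and 11.82 in control, and so was below control with siOct4 and above it with siCcnf+siNipp1 (-1.76 ± 0.16, adjusted p = 1.23e-05). In the pluripotency list, 3 of 15 tested genes were higher and 5 lower with siOct4 (53.3% called, beside 37.0% of all genes). POU5F1, the gene the siRNA targets, was among the lower ones and passed the filter only through siCcnf+siNipp1. BMP2, a morphogen of the TGF-beta family, was higher with siOct4 (1.5 ± 0.19, adjusted p = 9.41e-05). TGFBR2, a receptor of that family, was lower (-0.87, adjusted p = 0.00297) and above control in both groups, and 1 of its 3 measured probes gave -0.11. The tubulin TUBB2B lay at 8.97, 9.32 and 9.10 with siOct4, 6.72, 7.11 and 6.91 with siCcnf+siNipp1 and 7.62, 7.67 and 8.03 in control, and TUBA4A in the reverse order at 9.17, 9.20 and 8.59 with siOct4, 10.51, 10.80 and 10.72 with siCcnf+siNipp1 and 9.52, 10.27 and 10.02 in control (2.22 ± 0.16 and -1.69 ± 0.20, adjusted p = 2.58e-06 and 7e-05).

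Most genes of the core metabolic and gene expression machinery did not pass the test. Calls covered 14.6% of 41 spliceosome genes, 18.2% of 33 mitochondrial ribosome genes, 20% of 40 oxidative phosphorylation genes, 23.1% of 26 glycolysis genes and 24.1% of 29 ribosome biogenesis genes, beside 37.0% of all genes. With the replicate block, lower spliceosome genes became 8 rather than 3, higher mitochondrial ribosome genes 9 rather than 2, higher oxidative phosphorylation genes 10 rather than 6 and higher glycolysis genes 7 rather than 4. Without siOct4 replicate 1 or siCcnf+siNipp1 replicate 2 the 6 became 3. Among 31 cytosolic ribosomal proteins 8 were higher and 2 lower with siOct4 (32.3% called, beside 37.0% of all genes). RPS23 had the largest difference (1.30, adjusted p = 4.33e-05). Without siCcnf+siNipp1 replicate 2 the 8 became 5. ACLY, which makes cytosolic acetyl-CoA for lipid synthesis, was lower with siOct4, at 11.75, 11.69 and 11.74 against 13.11, 12.95 and 13.15 with siCcnf+siNipp1 and 12.81, 12.85 and 12.80 in control (-1.34 ± 0.10, adjusted p = 2.86e-06). Of genes often used as stable references 4 of 14 were higher and 2 lower with siOct4 (42.9% called, near the 37.0% of all genes), among them YWHAZ with -1.17 (adjusted p = 1.03e-05). In these bulk samples fewer cells with a transcript and less of it per cell cannot be told apart.

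**Figure D4:**
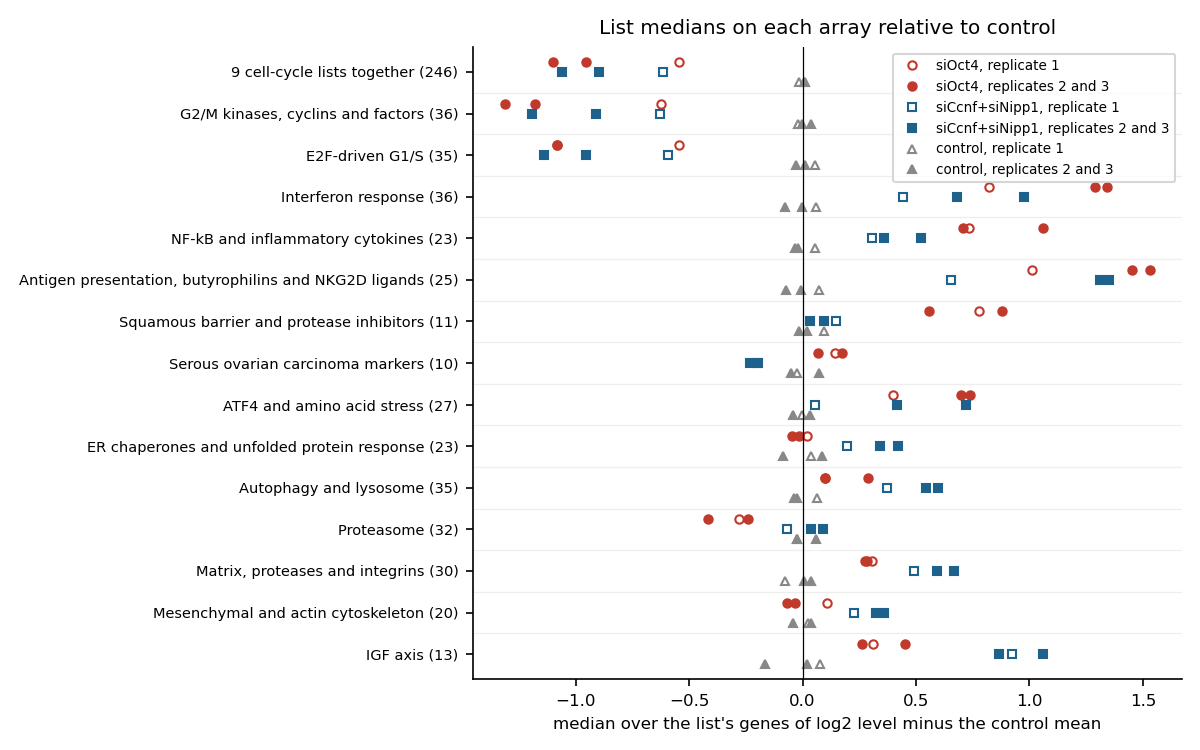
Median over the genes of 15 lists of the level minus the control mean (log2, x axis) on each array, with siOct4 as circles, siCcnf+siNipp1 as squares, control as triangles and replicate 1 open. The cell-cycle lists lie left of control by like amounts in both knockdowns, barrier and serous marker lists lie higher with siOct4, and the autophagy, matrix and insulin-like growth factor lists lie higher with siCcnf+siNipp1. The serous, matrix and insulin-like growth factor lists include genes that passed the filter only through the group where they were high.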

How the data were processed

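Biotin-labelled RNA was read on Illumina HT-12 bead arrays with GenomeStudio, per the submitters' processing notes. The authors deposited, per the file headers, each probe's linear signal intensity and detection p-value. They also deposited normalized intensity values of 47303 probes (method not stated in the sources used here). The platform annotation names 1 gene for 30102 of 47322 probes. Signals were processed in R 4.3.3 with limma 3.58.1 (neqc, offset 16, background from detection p-values, quantile normalization, log2). Probes detected (p-value under 0.01) on 3 or more of the 6 arrays were kept, and the one with the highest mean stood for its gene. All 12 arrays entered 1 model with a mean per group (8 residual and 4.06 prior degrees of freedom), two-sided, with p-values adjusted over 10314 genes. The comparisons with control share the control arrays, so only their values are given side by side.

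The members, the 45 gene lists (1379 genes, 1063 tested, 8 in more than 1 list) and the tests were chosen with earlier results of these data known. Genes were named by rule: the targets, the 15 largest differences each way without overlap, the 5 smallest p each way, up to 5 called members of a list each way, and 17 fixed cell-cycle genes, of which MYBL2 and MKI67 did not pass the filter. The replicate numbers pair the samples, since same-numbered siOct4 and siCcnf+siNipp1 arrays deviated together from their group means (r = 0.374, 0.351 and 0.43). The main fit does not use this pairing, and results with the replicate number as a block are given as an alternative. The fit was run on simulated data (10314 genes) in which 67, 67 and 66 genes changed by 0.5, 1 and 2 on the log2 scale. It recovered 22.4%, 77.6% and 97% of these, with 12 false calls among 143. Far fewer genes changed there than the 3813 called in the data, and the simulated arrays were not paired. These rates therefore describe the simulation and need not hold for this comparison. Promoter sequences are RefSeq's. Figures were drawn in Python with matplotlib.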

Additional observations from a re-analysis of the deposited data

How the results depend on the processing

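Of 319 named called genes, 261 could be recomputed under 20 alternatives and 58 under 19, not being detected on all 6 arrays. In those run, 180 kept their call and 139 lost it at least once, and 0 changed sign. The number of genes called was 3813 (1922 higher, 1891 lower). It was 1707 (845 higher, 862 lower) when the difference was tested against 1.2-fold (limma treat), which ends small calls by its construction. Leaving out 1 array gave 3018 to 3531 genes, 1536 to 1753 higher and 1482 to 1783 lower. With the replicate number as a block 4870 were called (2449 higher, 2421 lower), 3803 of them among the 3813, and beside CCNF and PLK1 it changed no other call of a named gene outside the list counts. Fitting the 6 arrays alone gave 2989, the authors' normalized values 4007, and median scaling 3344 (1877 higher, 1467 lower), with the median of all genes at 0.0414. Averaging the kept probes of a gene changed the sign of 19 of the 3813. At an unadjusted p under 0.05, 4773 genes passed.

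Differences near 0 changed sign when an array was left out, and the cause was not tested. Over the 6 arrays left out in turn, CCNA2 ran between -0.313 and 0.175, CCNE1 between -0.247 and 0.0458, FOXM1 between -0.556 and 0.0136, AURKA between -0.317 and 0.0527, AURKB between -0.0291 and 0.398, TOP2A between -0.137 and 0.171 and CDC20 between -0.313 and 0.152. The low end came without siOct4 replicate 1 for each of these but CCNE1 (without siCcnf+siNipp1 replicate 3). With 3 arrays a group, and signals near background for dim probes, small differences cannot be seen.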

Other observations

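The tubulin list had 3 of 15 genes higher and 3 lower with siOct4 (40% called, near the 37.0% of all genes). Beside TUBB2B and TUBA4A, TUBD1 and TUBB6 were lower with siOct4 (-0.93 and -0.67, limma adjusted p = 0.000176 and 0.00261).

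The histone list had 6 of 24 higher and 4 lower with siOct4 (41.7% called, near the 37.0% of all genes). H2BC5 was higher (0.97, limma adjusted p = 0.00891) and H2BC12 lower (-1.09, adjusted p = 0.00228), so members of the H2B type went both ways. Probes for such near-identical genes may read each other's transcripts. Without siOct4 replicate 1 the 6 became 10, and without siOct4 replicate 2 or siCcnf+siNipp1 replicate 3 they became 3.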
